A study of Arabidopsis thaliana with 12 samples.

Results

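The chloroplast genome of Arabidopsis thaliana keeps the genes for the core of the photosynthetic machinery and for part of the machinery that expresses it. The genes described here are those with a plastid locus tag whose symbol begins with psa (photosystem I), psb (photosystem II), pet (cytochrome b6f complex), atp (ATP synthase), rps or rpl (small and large ribosomal subunit) or rpo (plastid RNA polymerase). The reference annotation has 57 such genes among 78 plastid protein-coding symbols, of which 55 were analysed here. They were covered by 57 probe sets, 4 of which held the same 12 values as another probe set of rpl2, rpl23, rps7 or rps12 and were counted once. That left 53 distinct measurements of 17481 tested. Of these, 50 name 1 gene, while psbC and psbD, atpB and atpE, and rps3 and rpl22 share a probe set, and rps12 has 2 that differ.

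Plastid genes are read by 2 kinds of RNA polymerase. The plastid-encoded polymerase (PEP) is of bacterial type: its core is built from the products of rpoA, rpoB, rpoC1 and rpoC2, and nuclear sigma factors guide it to promoters. The nuclear-encoded polymerase (NEP) is of phage type and reads, among others, the rpoB-rpoC1-rpoC2 unit, so that it supplies transcripts for the core of the other enzyme. From textbook knowledge, mostly of tobacco, photosystem and cytochrome b6f genes are read mainly by PEP, many ATP synthase and ribosomal protein genes by both enzymes, and the rpoB unit by NEP. The measurements were sorted on that basis into a PEP class of 25 (psa, psb and pet), a class of 25 read by both enzymes (atp, rps, rpl and rpoA) and a NEP class of 3 (rpoB, rpoC1 and rpoC2). The classes are background knowledge about promoters; the arrays measured transcript signal and not which enzyme made it.

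Root and shoot of wild type and of aladin formed 4 groups of 3 libraries each. Wild type is the ecotype Wassilewskija-4, and aladin is a mutant line named after ALADIN, a nuclear pore protein; the labels give no allele, so the kind of lesion is not known here. All plants were 10 days old and had grown, after 3 days of stratification, on vertical agar plates with 1% sucrose in a 16 h photoperiod at 20 °C. Roots were separated from shoots before freezing, and total RNA was hybridised to Affymetrix Arabidopsis Gene 1.0 ST arrays.

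Values are log2 signals after RMA. Libraries of a group correlated at 0.991 to 0.997 over the tested probe sets. The probe set of ALADIN read 8.36 to 8.42 in wild-type root and 12.58 to 12.76 in the root libraries labelled aladin, and 7.71 to 7.80 against 12.35 to 12.41 in shoot. Signal for the gene was thus higher in every library labelled aladin, and directions below are those between the libraries as labelled. The libraries are called biological replicates without a stated source, and how many plants each pooled is not given. Each library is a bulk sample, in which more plastids or green cells and more plastid RNA per cell cannot be told apart.

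In root, many of these plastid transcripts were higher in the libraries labelled aladin, by amounts that differed between the polymerase classes. By limma, with Benjamini-Hochberg adjustment over all tested probe sets and a threshold of 0.05, 22 of the 53 measurements were higher and 0 were lower. Among all tested probe sets 4.63% were higher and 3.01% lower, or 7.64% in either direction. The median log2 difference was 0.23 over the 53 measurements, with a range of -0.38 to 0.79, against -0.04 over all tested probe sets. The NEP class had 3 of 3 higher, with a median of 0.74. The class read by both enzymes had 14 of 25 higher, with a median of 0.42, and the PEP class 5 of 25, with a median of 0.16. The PEP class median was 0.09 without wild-type root replicate 1 and 0.24 without aladin root replicate 1. The 3 aladin root libraries lay above all 3 wild-type ones in 35 of 53 measurements and below them in 2, psbB and psbZ; over all tested probe sets these shares were 13.4% and 18.3%. No test of the classes against each other was made, since the genes of a transcription unit are not independent.

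**Figure D1:**
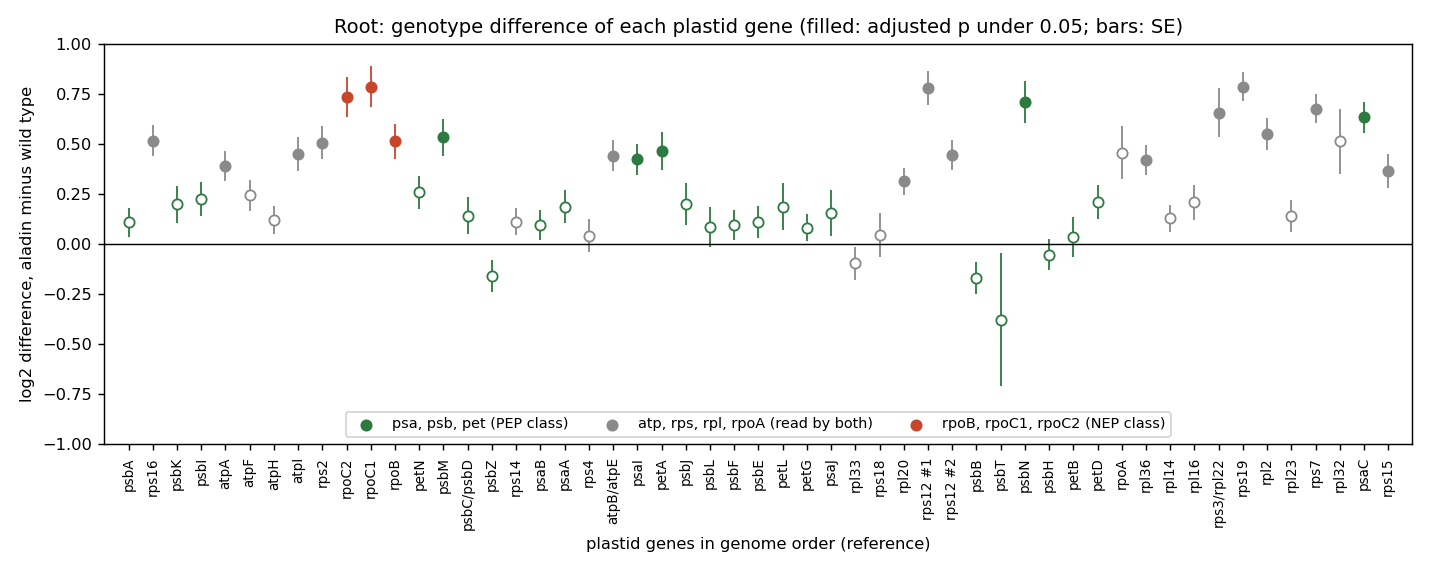
Log2 difference in root, libraries labelled aladin minus wild type, for each of the 53 measurements in plastid gene order (points, filled where the adjusted p is under 0.05; bars are the standard error of limma's fit), coloured by polymerase class. The 3 NEP class genes sit at 0.51 to 0.79, while the 25 PEP class measurements have a median of 0.16 and psbT, with the widest error, lies at -0.38.

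The rpo genes of the NEP class had the highest class median. The gene rpoC1, for the β′ subunit, read 10.58, 10.76 and 10.65 in the wild-type root libraries and 11.32, 11.43 and 11.61 in those labelled aladin. Its partner rpoC2, for the β″ subunit, read 11.04, 11.18 and 11.01 against 11.81, 11.84 and 11.80. The gene rpoB, for the β subunit, read 10.53, 10.68 and 10.62 against 11.11, 11.17 and 11.09. Every aladin root library stood above every wild-type root library for these 3 genes. The log2 differences were 0.79 ± 0.10 for rpoC1, 0.74 ± 0.10 for rpoC2 and 0.51 ± 0.09 for rpoB (± standard error of the fit, n = 3 and 3), or 1.73-fold, 1.67-fold and 1.43-fold. The adjusted p in limma was 4.89e-04, 6.72e-04 and 0.00339 in the same order.

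The fourth core gene, rpoA, encodes the α subunit and lies at the end of a ribosomal protein unit, away from the other rpo genes. It read 11.51, 11.96 and 11.65 in wild-type root and 11.94, 12.25 and 12.30 in aladin root. The groups overlapped, since wild-type replicate 2 stood just above the lowest aladin library. The difference of 0.46 ± 0.13 did not pass the test (limma adjusted p = 0.0600).

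Genes for the small ribosomal subunit followed, with 8 of 11 measurements higher and a median difference of 0.51. The gene rps19 read 11.81, 11.95 and 11.89 in wild-type root and 12.65, 12.68 and 12.68 in aladin root, a difference of 0.79 ± 0.07 (1.73-fold, limma adjusted p = 3.56e-05). For rps12, a trans-spliced gene in pieces, probe set 1 read 11.80, 11.87 and 11.88 against 12.55, 12.58 and 12.76, a difference of 0.78 ± 0.08 (adjusted p = 1.25e-04). For rps7, which neighbours the 3′ part of rps12, the values were 11.53, 11.71 and 11.66 against 12.29, 12.30 and 12.33, a difference of 0.68 ± 0.07 (adjusted p = 1.25e-04). In these 3 measurements the groups were separated by a gap wider than the spread within either.

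The other rps12 measurement, probe set 2, read 12.78, 12.91 and 12.82 against 13.20, 13.32 and 13.33, a difference of 0.45 (limma adjusted p = 0.00305). Both probe sets of rps12 thus passed the test in root. The gene rps16, which holds an intron in plants, read 9.19, 9.35 and 9.22 against 9.76, 9.72 and 9.84, a difference of 0.52 ± 0.08 (adjusted p = 0.00114). For rps2, at the head of an ATP synthase unit, the values were 11.41, 11.59 and 11.45 against 11.89, 12.03 and 12.04, a difference of 0.51 ± 0.08 (adjusted p = 0.00224). The groups did not overlap in any of these.

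The shared probe set of rps3 and rpl22 read 11.34, 11.43 and 11.57 in wild-type root and 11.88, 12.06 and 12.37 in aladin root, a difference of 0.66 ± 0.12 (limma adjusted p = 0.00522). The aladin libraries were more spread here than for the neighbouring rps19, but again lay above wild type. The gene rps15 also rose, by 0.37 (adjusted p = 0.0209), and its adjusted p reached 0.101 when wild-type root replicate 3 was left out. The remaining small subunit genes differed by 0.11 (rps14), 0.05 (rps18) and 0.04 (rps4) and did not pass the test.

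For the large ribosomal subunit 3 of 8 measurements were higher, with a median of 0.26. The gene rpl2 read 12.41, 12.62 and 12.58 in wild-type root and 13.01, 13.11 and 13.14 in aladin root, a difference of 0.55 ± 0.08 (limma adjusted p = 0.00111). For rpl36 the values were 12.24, 12.35 and 12.35 against 12.72, 12.81 and 12.66, a difference of 0.42 ± 0.07 (adjusted p = 0.00423). Neither gene had overlapping groups. The gene rpl20 rose by 0.31 (adjusted p = 0.0133, and 0.0588 without wild-type root replicate 3). The differences of rpl32 (0.51 ± 0.16, adjusted p = 0.0819), rpl16 (0.21), rpl23 (0.14), rpl14 (0.13) and rpl33 (-0.10) did not pass the test.

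ATP synthase, which makes ATP from the proton gradient across the thylakoid membrane, had 3 of 5 measurements higher and a median of 0.39. The shared probe set of atpB and atpE, for the β and ε subunits, read 12.09, 12.28 and 12.17 in wild-type root and 12.54, 12.68 and 12.64 in aladin root, a difference of 0.44 ± 0.08 (limma adjusted p = 0.0038). The genes atpI (subunit a) and atpA (α) rose by 0.45 and 0.39 (adjusted p = 0.00591 and 0.0066). The differences of atpF (0.24) and atpH (0.12), for the membrane subunits b and c, did not pass. All 5 measurements were higher in each aladin root library than in any wild-type one, as were 13.4% of all tested probe sets. Of these, atpA, atpF, atpH and atpI belong to 1 transcription unit and are not independent.

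The photosystem and cytochrome b6f genes of the PEP class stayed closer to wild type. For psbA, which encodes the D1 reaction centre protein of photosystem II, the values were 13.58, 13.70 and 13.69 in wild-type root and 13.74, 13.75 and 13.81 in aladin root. The groups lay next to each other without overlap, and the difference of 0.11 did not pass the test (limma adjusted p = 0.477). The probe set shared by psbC (CP43) and psbD (D2) read 12.34, 12.38 and 12.34 against 12.31, 12.53 and 12.64, with overlapping groups and a difference of 0.14 (adjusted p = 0.448).

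The photosystem I core proteins are encoded by psaA and psaB. The values of psaA were 12.40, 12.43 and 12.48 in wild-type root against 12.47, 12.70 and 12.70 in aladin root, a difference of 0.19 (limma adjusted p = 0.226). Those of psaB were 13.20, 13.30 and 13.25 against 13.32, 13.33 and 13.40, a difference of 0.10 (adjusted p = 0.543). The psaA groups overlapped in 1 aladin library, and the psaB groups were separate by a margin smaller than their own spread.

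The cytochrome b6 gene petB read 12.90, 13.07 and 13.00 against 12.83, 13.07 and 13.18, with all 3 wild-type values inside the aladin range (difference 0.04, limma adjusted p = 0.907). The subunit IV gene petD read 11.93, 12.16 and 12.07 against 12.17, 12.27 and 12.36, a difference of 0.21 (adjusted p = 0.180). Its aladin libraries stood just above the wild-type ones. Of the smaller subunits, the cytochrome b559 genes psbE and psbF differed by 0.11 and 0.09, psbK, psbI and psbJ by 0.20, 0.23 and 0.20, psbL by 0.09 and psbZ by -0.16. Among the small cytochrome b6f genes the differences were 0.26 for petN (adjusted p = 0.0799), 0.19 for petL and 0.08 for petG, and psaJ of photosystem I differed by 0.16. None of these passed the test. Over the 20 PEP class measurements that were not called, the differences ran from -0.38 to 0.26 with a median of 0.11.

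The 5 PEP class genes that did rise in root were psbN, psaC, psbM, petA and psaI. The gene psbN, whose product in tobacco assists photosystem II assembly and is no subunit of it, read 10.04, 10.37 and 10.31 in wild-type root and 10.80, 11.01 and 11.03 in aladin root, a difference of 0.71 ± 0.10 (limma adjusted p = 0.00103). The gene psaC, for the iron-sulphur subunit on the stromal side of photosystem I, read 11.46, 11.68 and 11.65 against 12.26, 12.25 and 12.17, a difference of 0.63 ± 0.08 (adjusted p = 3.18e-04). The gene psbM, for a small photosystem II subunit, read 8.21, 8.51 and 8.29 against 8.83, 8.87 and 8.92, a difference of 0.53 ± 0.09 (adjusted p = 0.00338). No aladin library fell within the wild-type range for any of them. The cytochrome f gene petA and the small photosystem I gene psaI rose by 0.47 and 0.42 (adjusted p = 0.00833 and 0.00533).

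Several of these sit beside genes of another kind in the plastid gene order. The gene psaC lies within the ndhH to ndhD unit, whose members encode the chloroplast NDH complex. There ndhD and ndhE differed by 0.67 and 0.49 in root, close to the 0.63 of psaC (all 3 past the limma threshold). In the psaI unit, psaI (0.42), ycf4 (0.51), cemA (0.49) and petA (0.47) were all higher by a like amount.

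The psbB unit had no call. Its members psbB (-0.17), psbT (-0.38 ± 0.33), psbH (-0.05), petB (0.04) and petD (0.21) did not pass the test, while psbN, read from the other strand between psbT and psbH, rose by 0.71. The CP47 gene psbB read 12.16, 12.41 and 12.34 in wild-type root and 12.15, 12.15 and 12.11 in aladin root, so its aladin libraries were the lower ones. It was called lower with a trended, robust prior but not in the reported fit (limma adjusted p = 0.256). Whether the probes of psbN read 1 strand only is not stated in the sources used here.

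Placing genes by transcription unit kept the PEP class below the class read by both enzymes, and left the NEP class with the same 3 genes. With rps14, rpl33 and rps18 moved to the PEP class and psaC out of it, 4 of 27 PEP class measurements were higher (median 0.11) against 15 of 23 in the class read by both enzymes (median 0.45). Since rps14, rpl33 and rps18 were low in root (0.11, -0.10 and 0.05) and psaC high (0.63), this sorting lends no independent support. Within the class read by both, long units were uneven. In the unit that starts with rpl23 the differences ranged from 0.13 (rpl14) to 0.79 (rps19). In the unit from rps2 to atpA they ranged from 0.12 (atpH) to 0.51 (rps2).

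The class medians were also taken library by library. Each library was set against the wild-type mean of its organ, gene by gene, and the median over a class was taken. In the 3 aladin root libraries this median was 0.66, 0.76 and 0.72 for the NEP class, 0.34, 0.46 and 0.38 for the class read by both, and 0.08, 0.18 and 0.27 for the PEP class. The wild-type root libraries lay between -0.09 and 0.09 for all 3 classes. The NEP class median exceeded the PEP class median by 0.58, 0.58 and 0.45 in the aladin root libraries and by 0.40 in each aladin shoot library. The wild-type libraries are set against their own mean, so their gaps centre near 0 by construction and show only the spread, which was -0.05 to 0.02 in root and -0.17 to 0.17 in shoot.

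**Figure D2:**
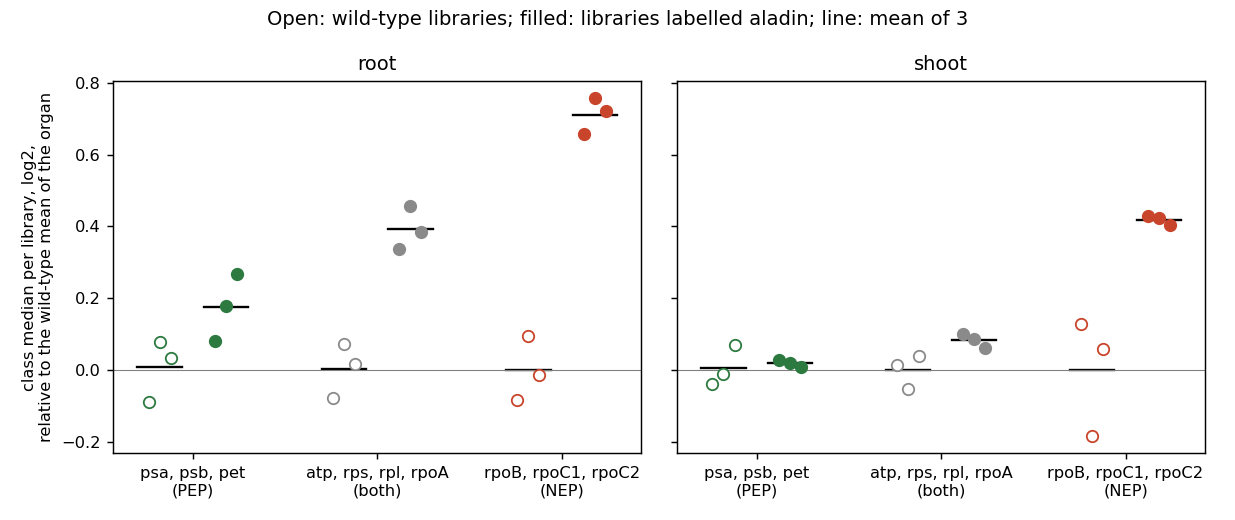
Median log2 difference from the wild-type mean of the same organ, for each of the 12 libraries (points) and each polymerase class. In aladin root the 3 NEP class points lie at 0.66 to 0.76 and the PEP class points at 0.08 to 0.27; in aladin shoot the NEP class points lie at 0.40 to 0.43 and the others at 0.10 or lower.

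In shoot, where chloroplasts are abundant, 4 of 53 measurements were higher in the libraries labelled aladin and 0 were lower (limma, adjusted p under 0.05), against 1.49% higher and 1.47% lower among all tested probe sets, or 2.96% in either direction. They were rps16, rpoC2, rpoB and psbM, all of which were also higher in root. The median difference over the 53 was 0.06. It was 0.42 in the NEP class, with 2 of 3 called, 0.06 in the class read by both, with 1 of 25, and 0.01 in the PEP class, with 1 of 25. With 1 library left out the PEP class median in shoot ran from -0.0022 (wild-type shoot replicate 1) to 0.06 (wild-type shoot replicate 3), so it had no settled sign. That of the class read by both ran from 0.0352 (wild-type shoot replicate 2) to 0.11 (wild-type shoot replicate 3). The aladin shoot libraries lay above wild type without overlap in 20 of 53 measurements and below it in 1, petN; over all tested probe sets these shares were 8% and 11%.

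The gene rps16 read 11.83, 11.74 and 11.84 in wild-type shoot and 12.44, 12.43 and 12.46 in aladin shoot, a difference of 0.64 ± 0.08 (1.56-fold, limma adjusted p = 0.0014). The groups were far apart relative to their spread. It was called under every alternative setting, with an adjusted p of at most 0.0472.

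Of the 4 rpo genes, rpoB and rpoC2 passed the test in shoot. The values of rpoB were 12.69, 12.39 and 12.63 in wild-type shoot against 13.00, 12.99 and 12.99, a difference of 0.42 ± 0.09 (limma adjusted p = 0.0280). For rpoC2 they were 12.91, 12.53 and 12.81 against 13.16, 13.26 and 13.15, a difference of 0.44 ± 0.10 (adjusted p = 0.0403). For rpoC1 they were 12.64, 12.33 and 12.57 against 12.95, 12.94 and 12.92, a difference of 0.42 ± 0.10 that just missed the threshold (adjusted p = 0.0520).

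In each of the 3, wild-type shoot replicate 2 was the lowest library and the groups did not overlap. Without that replicate rps16 alone was called in shoot, and the rpoC1 difference was 0.33 (limma adjusted p = 0.136). Leaving out any 1 of the aladin shoot libraries also left rps16 as the single call. The gene rpoA read 12.73, 12.75 and 12.99 in wild-type shoot and 13.06, 12.95 and 12.94 in aladin shoot, with overlap and a difference of 0.16 (adjusted p = 0.591). The gene psbM read 11.73, 11.64 and 11.79 against 12.21, 12.14 and 12.04, a difference of 0.41 ± 0.09 (adjusted p = 0.0369).

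The main photosynthesis genes had nearly equal signal in both shoot groups. For psbA the values were 13.80, 13.86 and 13.94 in wild-type shoot and 13.84, 13.79 and 13.82 in aladin shoot. For psaA they were 13.79, 13.78 and 13.89 against 13.85, 13.84 and 13.83. For psaB they were 13.86, 13.91 and 13.99 against 14.02, 13.92 and 13.91. The groups overlapped in all 3.

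The same held for the others of this kind. The shared probe set of psbC and psbD read 13.62, 13.74 and 13.79 in wild-type shoot and 13.67, 13.70 and 13.66 in aladin shoot. For petB the values were 13.57, 13.71 and 13.76 against 13.68, 13.71 and 13.63, and for petD 13.52, 13.52 and 13.63 against 13.64, 13.59 and 13.57. Each of these 6 differences was between -0.05 and 0.04. The probe set of atpB and atpE read 13.56, 13.61 and 13.60 against 13.75, 13.69 and 13.68, without overlap, a difference of 0.12 that did not pass (limma adjusted p = 0.469).

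Whether the genotype difference itself differed between organs was tested as an interaction in the same fit. It was larger in root for 5 of 53 measurements and smaller for 0, against 1.43% and 0.715% of all tested probe sets, or 2.15% in either direction. The 5 were rps12 probe set 1, rps19, rps7, psaC and rpl2, with root minus shoot differences of 0.62, 0.59, 0.53, 0.51 and 0.49 (limma adjusted p = 0.0211, 0.0116, 0.0215, 0.0377 and 0.0494). The other rps12 measurement, probe set 2, had a root minus shoot difference of 0.30 and did not pass (limma adjusted p = 0.208). In shoot rps19 read 13.23, 13.13 and 13.23 against 13.39, 13.40 and 13.40, and rps7 read 13.18, 13.13 and 13.20 against 13.32, 13.33 and 13.28. Both stood slightly above wild type there, by 0.20 and 0.14, without passing the test.

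For psaC the shoot values were 13.59, 13.58 and 13.56 against 13.69, 13.70 and 13.71, and for rpl2 13.36, 13.32 and 13.41 against 13.46, 13.39 and 13.40. The probe set 1 of rps12 read 13.28, 13.16 and 13.30 against 13.47, 13.44 and 13.32. All 5 thus had shoot signals above 13, near the top of the scale. Leaving out any 1 library reduced the 5 calls to between 1 and 3, with rps19 called each time. The NEP class had 0 of 3 interaction calls, with root minus shoot differences of 0.09 to 0.37.

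**Figure D3:**
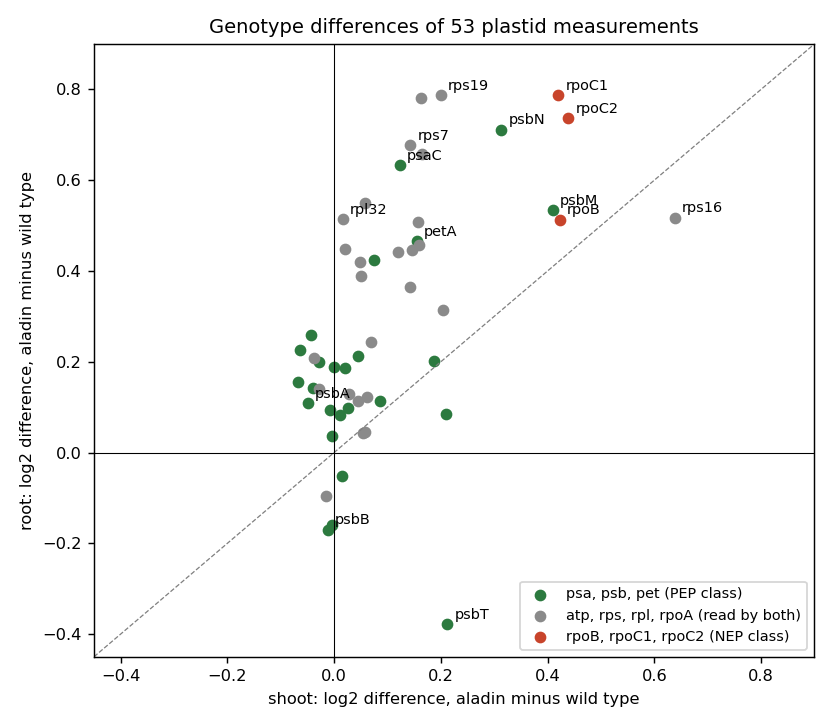
Log2 difference, libraries labelled aladin minus wild type, in shoot (x axis) and in root (y axis) for the 53 measurements, coloured by polymerase class. The NEP class genes and rps16, psbM and psbN are high in both organs, while rps19, rps12 probe set 1, rps7, psaC and rpl2 are high in root and near the centre in shoot.

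Across the 53 measurements the root and shoot differences had a Pearson r of 0.55 and a Spearman rho of 0.57, against 0.33 and 0.23 across all tested probe sets. The points are genes that share the libraries and, in part, transcription units, so the values are descriptions. The gene psbN differed by 0.31 in shoot (limma adjusted p = 0.140) after its rise in root. The photosystem II genes psbL and psbJ differed by 0.21 and 0.19 in shoot and by 0.09 and 0.20 in root, without passing in either organ.

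Between organs, these plastid genes had the higher signal in shoot. In wild type 53 of 53 measurements were higher in shoot (limma, adjusted p under 0.05), where 26.9% of all tested probe sets were higher and 31.9% lower, or 58.8% in either direction. The groups overlapped for none of the 53; among all tested probe sets 29.9% lay higher in shoot without overlap and 34.4% lower. The median shoot minus root difference was 1.47 in the PEP class, 1.32 in the class read by both and 1.85 in the NEP class. Single measurements ranged from 0.21 (rpl20 and psbA) to 3.44 (petN) and 3.50 (psbT). In the libraries labelled aladin 49 of 53 were higher in shoot, where 28.8% of all tested probe sets were higher and 33.2% lower, or 62.1% in either direction, with medians of 1.34, 0.82 and 1.48. Shoot lay above root without overlap for 51 of the 53, against 32% of all tested probe sets, and below it for 0, against 35.5%. The 4 not called were psbA (0.05), rpl16 (0.08), rpl20 (0.09) and rpl14 (0.13). The shoot minus root difference was lower in aladin than in wild type for 44 of the 53, against 8552 of the 17481 tested probe sets. This is the same contrast as the interaction above, in which 5 were called, and no further observation.

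The signal scale is described beside these sizes, and its part in the organ differences was not tested. The highest value of any probe set was 14.37 to 14.45 over the groups, and the member means had a median of 11.9 in wild-type root, 12.3 in aladin root and 13.4 in both shoot groups. Means above 13 were seen for 7 members in wild-type root, 12 in aladin root, 40 in wild-type shoot and 44 in aladin shoot. Members with a high wild-type root signal, which depends on the probes as well as on the transcript, had small organ differences (Pearson r = -0.94, Spearman rho = -0.94, n = 53, both measures sharing the wild-type root libraries). The uncalled organ differences of psbA, rpl14, rpl16 and rpl20 are of members with root signals above 13.

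**Figure D4:**
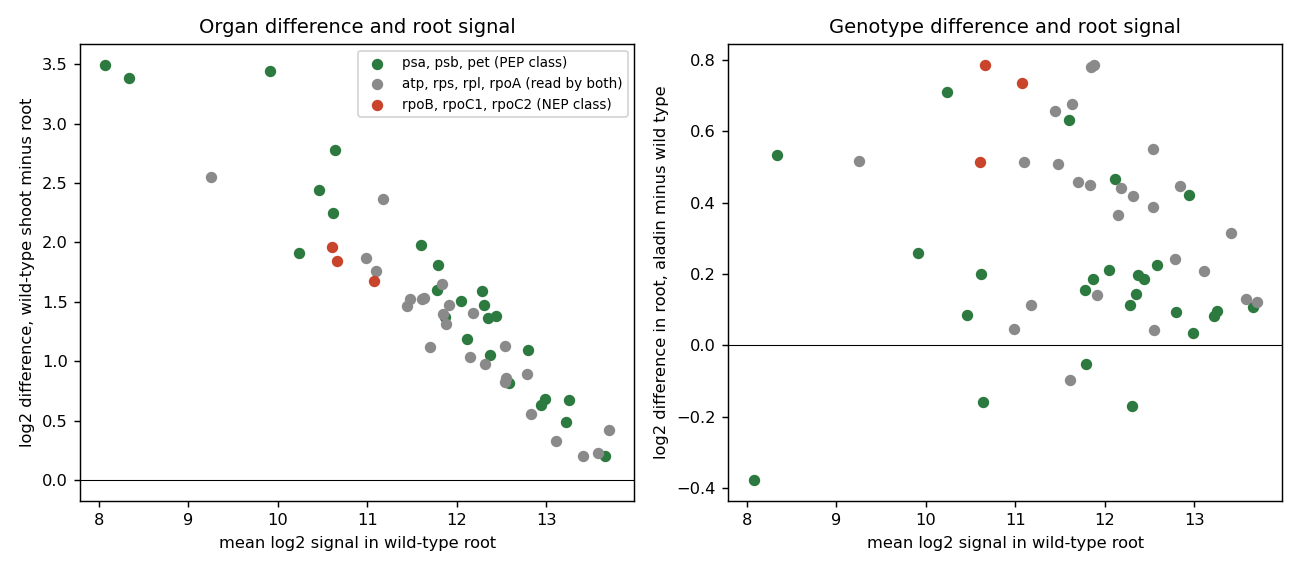
Wild-type root signal of the 53 measurements (x axis, log2) against the shoot minus root difference in wild type and against the aladin minus wild-type difference in root (y axes, log2), coloured by polymerase class. The organ difference falls towards 0 as signal nears 14, while the genotype difference in root shows no such slope.

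The root genotype difference moved little with signal (Pearson r = -0.12, Spearman rho = -0.27). Among members with a mean over the 12 libraries under 12.5, the median root difference was 0.20 in the PEP class (n = 7), 0.48 in the class read by both (n = 8) and 0.74 in the NEP class (n = 3). At or over 12.5 it was 0.15 (n = 18) and 0.39 (n = 17), with no NEP class member. In shoot the 7 PEP class members under 12.5 had a median of 0.21 and the 18 others 0.01. The part of the top of the scale in the smaller shoot differences was not tested beyond this split.

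The other plastid protein genes were also mostly higher in root. Of 23 distinct measurements 16 were higher and 0 lower in root (median 0.42), and 0 were called in shoot (limma, adjusted p under 0.05). The NDH genes, which like the PEP class serve photosynthetic electron transport, contributed 10 of 11. Their root median of 0.53 was above the 0.42 of the class read by both and the 0.16 of the PEP class. The remaining measurements gave 6 of 12: ycf4, cemA, ycf2, matK (a maturase for introns), clpP (a protease subunit) and accD (a subunit of acetyl-CoA carboxylase for fatty acid synthesis). These 12 are not all different genes: ycf1 is counted more than once, in part by probe sets that also name AT2G07739.

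A few genes outside the chosen families are known for 1 of the enzymes. They were picked after their values were seen and lend no support to the order of the classes. The PEP-read gene rbcL, for the large subunit of Rubisco, differed by 0.02 in root and -0.04 in shoot. The genes accD and ycf2, which NEP reads, differed by 0.31 and 0.48 in root (limma adjusted p = 0.0325 and 0.0017) and by 0.26 and 0.22 in shoot (adjusted p = 0.101 and 0.163). The rest of the list was not sorted by enzyme. Of its genes outside NDH, ycf4, cemA, matK and clpP rose by 0.51, 0.49, 0.42 and 0.31 in root, all past the limma threshold. There ycf1 (0.24, and 0.19 and 0.09 for its shared probe sets), ccsA (0.07) and ycf3 (-0.0007) did not pass.

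Nuclear genes for the same complexes were thinly covered, and neither the nuclear polymerases, sigma factors and other plastid transcription genes (0 of 33) nor the nuclear plastid ribosomal proteins (0 of 10) had a named probe set. In root, PSAE-1 and PSAN of photosystem I rose by 1.38 and 0.73 (limma adjusted p = 3.75e-06 and 0.0067), and PSBW of photosystem II by 0.47 (adjusted p = 0.005). PSBY fell by 0.44 (adjusted p = 0.0418), and PSB27 (0.38) and the ATP synthase gene ATPC1 (-0.28) did not pass. All 6 lay between -0.07 and 0.06 in shoot.

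Markers of green tissue were checked because of what a root sample could hold. Of 29 listed, 4 were measured (RCA, LHCB4.1, LHCB4.2 and PORB), and 1, RCA for Rubisco activase, passed the test in root, with a rise of 0.61 (limma adjusted p = 0.0031). The light-harvesting genes LHCB4.1 and LHCB4.2 differed by 0.13 and -0.53, and PORB by 0.56, without passing. Their summed linear level was 624 to 661 in the wild-type root libraries, 772 to 1085 in aladin root, 10085 to 10723 in wild-type shoot and 9726 to 10264 in aladin shoot. The sum was higher in each aladin root library than in any wild-type one, but the markers did not move together. It weighs RCA most, whose mean log2 signal in wild-type root was 8.67, against 5.09 to 7.21 for the others. Their median log2 difference from the wild-type root mean was 0.54, 0.33 and -0.09 in the aladin root libraries, so aladin root replicate 3 lay below the wild-type libraries by this measure, which ran from -0.03 to 0.06. The part of green tissue in the plastid gene differences was not tested. Of the 19 root markers 2 were measured, EXPA7 (-0.29) and PYK10 (-0.03), and neither passed.

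**Figure D5:**
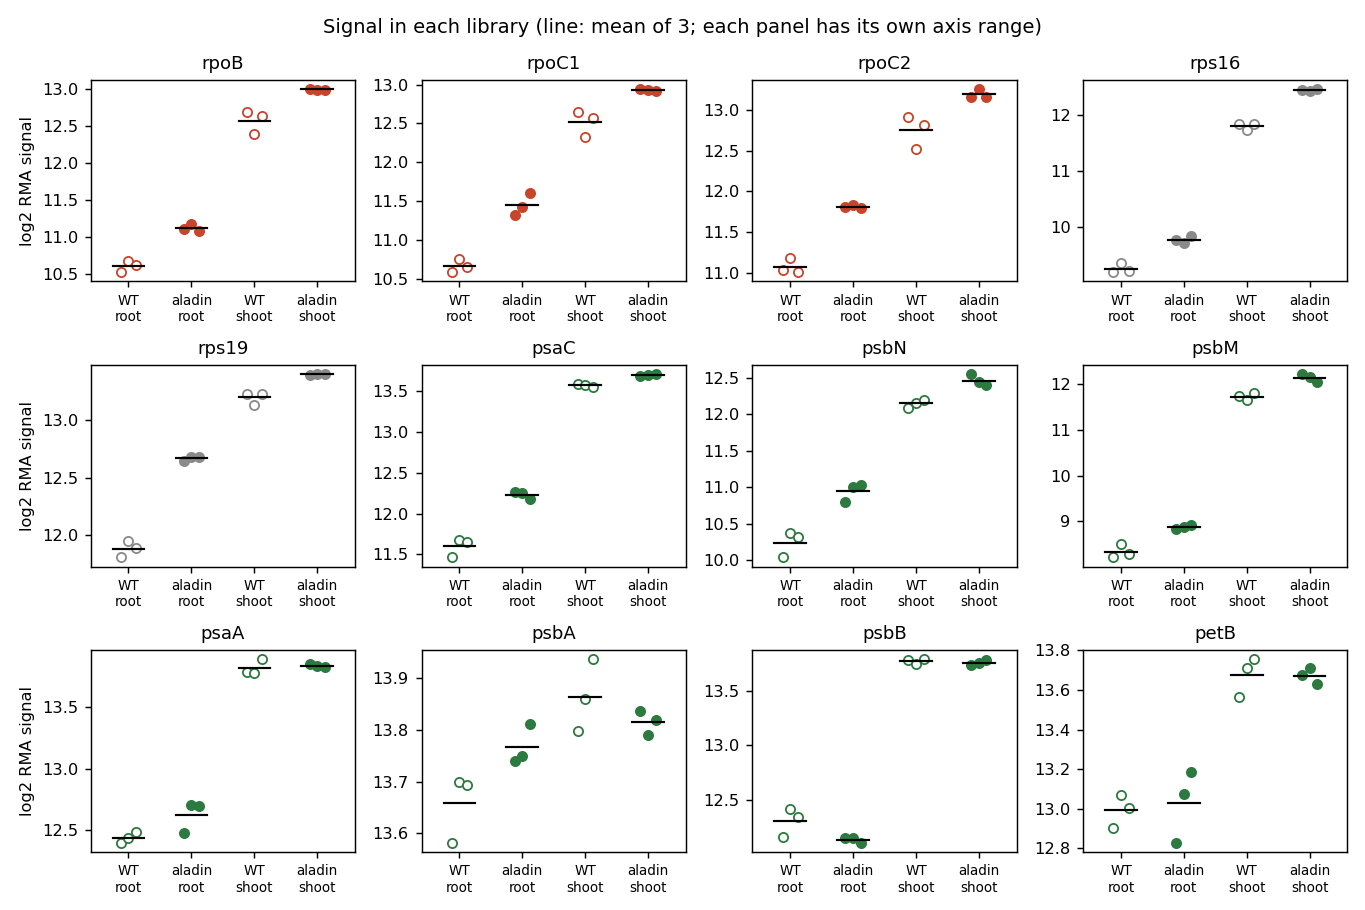
Log2 signal after RMA in each of the 12 libraries (points, open for wild type and filled for aladin, line at the mean of 3) for 12 chosen measurements. Panels show rpoB, rpoC1, rpoC2, rps16, rps19, psaC, psbN, psbM, psaA, psbA, psbB and petB, coloured by polymerase class, each with its own axis range. In root the aladin points stand above wild type for rpoB, rpoC1, rpoC2, rps16, rps19, psaC, psbN, psbM and psbA. They lie below it for psbB and overlap with it for psaA and petB.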

How the data were processed

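Per the submitters' processing notes, the authors summarised the arrays with RMA, and the deposited values are log2 signals of 38408 probe sets in 12 libraries; the sources used here name no software version, background setting or annotation build. The values were used as deposited. Names came from the platform annotation, matched by gene ID to the RefSeq TAIR10.1 gene table, which gave the locus tags. The 17481 probe sets with a named gene were tested. A group-means model over all 12 libraries was fitted with limma 3.58.1 (R 4.3.3, empirical Bayes, 8 residual and 3.67 prior degrees of freedom), with Benjamini-Hochberg adjustment and a threshold of 0.05; standard errors are the moderated ones, and folds are 2 to the power of the log2 difference. Scripts were tested on simulated data. Members and lists were chosen with earlier results of these data known. Every member is named; library values were given for the 16 with the smallest p in root or shoot, all rpo genes and 7 textbook genes, and for psbB, chosen after its values were seen. Alternatives covered normalization, filters, prior, array weights, replicate block, classes and left-out libraries. Signal depends on the probes as well as on the transcript, so levels were set side by side across probe sets only to describe the signal scale and to sum markers within a library, and precision is limited by 3 arrays per group. No sequence table covering these genes was used here.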

Additional observations from a re-analysis of the deposited data

Results flagged for a closer look

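A difference between organs in the effect of genotype was tested as an interaction with limma over all tested probe sets. It was called for 5 of 53 plastid measurements, all with the larger difference in root. Among all tested probe sets 2.15% were called, 1.43% of them in that direction. The log2 root minus shoot value was 0.62 for rps12 probe set 1 (adjusted p = 0.0211), 0.59 for rps19 (adjusted p = 0.0116), 0.53 for rps7 (adjusted p = 0.0215), 0.51 for psaC (adjusted p = 0.0377) and 0.49 for rpl2 (adjusted p = 0.0494). For rps12 probe set 2 it was 0.30 and did not pass (limma adjusted p = 0.208). At the threshold of 0.05, rps19 was called under every alternative fit, whereas rpl2 and psaC lost the call in 16 and 14 of them, and rps12 probe set 1 and rps7 in 4 each. All 5 had shoot signals above 13 in every library.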

How the results depend on the processing

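Of the 22 root calls, 20 held under every alternative; at the threshold of 0.05, rpl20 lost the call in 2 and rps15 in 5, all with a root library left out. The root count ranged from 20 to 32 over the alternatives, and no called result changed sign. Uncalled differences near 0 did change sign in places, among them rps4, rps18, petB and psbL in root and psbT in shoot with a library left out. With a trended, robust prior 10 PEP class members were called in root in place of 5, of which 9 were higher and psbB was lower. The gene rpoA passed the root test under 7 alternatives. In shoot, 4 members were called: 8 with the trended, robust prior, 2 with all probe sets in the fit, 1 with array weights, with each organ fitted alone or at an adjusted p of 0.01, and 1 to 4 with a library left out. The interaction gave 5 calls: 13 with the trended, robust prior, 3 with all probe sets, 0 at an adjusted p of 0.01 (limma; 8 with identical probe sets all counted), and 1 to 3 with a library left out. The cause of these changes was not tested.

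Replicate numbers gave little sign of pairing: deviations correlated at -0.057 to 0.097 between same-numbered libraries and at -0.097 to 0.085 between others. Between wild-type and aladin root, the same-numbered pairs were all positive (0.097, 0.016 and 0.058), and the others ran from -0.097 to 0.049. Whether replicates of a number shared handling was not tested. With the replicate number as a block, 22 members were called in root, 1 in shoot and 3 in the interaction.

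Class medians moved most between organs. In wild type, scaling to nuclear genes gave shoot minus root medians of 1.66 (PEP), 1.50 (both) and 2.03 (NEP), and cyclic loess 1.92, 1.76 and 2.25. In aladin these were 1.53, 1.01 and 1.67, and 1.77, 1.24 and 1.87. Scaling to nuclear genes moved the median of all genes to 0.22 in wild type and 0.23 in aladin. Quantile normalization gave 0.76 (both) and 1.43 (NEP) in aladin. For the class read by both in wild type the median was 1.12 with probe sets of 1 gene or with classes by unit, and 1.398 with identical probe sets counted. Leaving out a library gave 1.26 to 1.38 (PEP), 0.82 to 0.89 (both) and 1.42 to 1.56 (NEP) in aladin, and 0.0352 to 0.11 for the class read by both in shoot. For the PEP class it gave genotype medians of 0.0947 to 0.2355 in root and -0.0022 to 0.0559 in shoot. The shoot genotype medians were 0.0583 (PEP) and 0.11 (both) with cyclic loess, and 0.21 and 0.11 with members under 12.5 in mean signal alone, a split added after seeing the data, as was the count of identical probe sets. Many shoot signals lay near the top of the scale, and whether this made the shoot differences smaller was not tested beyond that split.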
